A study of Mus musculus with 6 samples.

Results

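The genes described here are 10 of the 21959 in a skin RNA-seq table, and they belong to the prostaglandin D2 (PGD2), prostacyclin (PGI2), prostaglandin F2 alpha and thromboxane branches of prostanoid metabolism. They are Pla2g4a, which starts the pathway, the PGD2 genes Ptgds, Hpgds and Ptgdr, the prostacyclin genes Ptgis and Ptgir, the prostaglandin F2 alpha receptor gene Ptgfr, the thromboxane genes Tbxas1 and Tbxa2r, and the prostaglandin carrier gene Slco2a1. They were chosen by gene symbol, and each symbol was found once. Poly-A RNA of full-thickness dorsal skin was sequenced from male C57BL/6 mice, 7 weeks old, shaved while their hair follicles were resting (telogen). For 7 days 3 mice received vehicle on the skin (30% dipropylene glycol and 70% water) and 3 mice received 3% rebamipide, a drug used to protect the gastric mucosa. The 6 mice were wild type, formed a cohort of their own, and each gave 1 library. Full-thickness skin holds epidermis, hair follicles, dermis, vessels, immune cells and the fat and thin muscle beneath, so a gene's level in such a sample is a sum over all of these. In bulk samples fewer cells of a type and less RNA per cell cannot be told apart.

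Prostanoids are lipid signals made from arachidonic acid. A phospholipase releases the acid from membranes, a cyclooxygenase turns it into prostaglandin H2, and terminal synthases convert this common precursor into PGD2, PGE2, PGF2 alpha, PGI2 or thromboxane A2, each with its own G protein-coupled receptors. In skin, PGD2 is known as an inhibitor of hair growth and as a product of mast cells, PGF2 alpha analogs are known to lengthen eyelashes, prostacyclin widens vessels and restrains platelets, and thromboxane A2 does the reverse of both.

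Vehicle libraries held 38676018 to 39915276 counts each, and rebamipide libraries 32709801 to 34706852. Levels are given as normalized CPM, the share of a library's reads on the usual CPM scale after edgeR's TMM scaling, and values stand in the order of replicates 1, 2 and 3. A count of 0 allows up to 3 counts, or 0.0601 to 0.0641 normalized CPM in vehicle and 0.0987 to 0.117 in rebamipide skin, for counting error only. The groups differed widely in the makeup of their RNA. Mitochondrially encoded transcripts made up 2.59% to 5.36% of a vehicle library and 13.3% to 22% of a rebamipide library. The summed level of 8 brown adipocyte markers was 177 to 319 normalized CPM in vehicle and 4560 to 12378 in rebamipide skin. Elovl3 made up most of the former (129 to 238 in vehicle and 33.3 to 83.1 in rebamipide skin), and Ucp1, at 0 in vehicle and 2667 to 8587 in rebamipide skin, and Cidea (15.6 to 58.3 and 1551 to 3541) nearly all of the latter. The summed level of 6 basal keratinocyte markers was 2452 to 3977 against 131 to 1141. The third rebamipide library stood apart, with 2.59 normalized CPM for 6 suprabasal keratinocyte markers, the defining transcripts of the outer epidermis, against 722 to 5336 in the vehicle libraries and 1333 and 913 in the other rebamipide libraries. The vehicle libraries also differed among themselves, since 5 markers of the growing hair follicle summed to 14304, 6524 and 154. Calls below were made with edgeR's quasi-likelihood test over 14875 genes at a Benjamini-Hochberg adjusted p under 0.05, and the median log2 fold change over these genes was -0.17, or -0.78 with scaling by library totals alone. Of all calls 68.4% were higher in rebamipide skin, against 25.1% with library totals alone.

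Promoter sequences are shown for the 3 genes that separate the results below, Pla2g4a and Hpgds, which were both called lower, and Ptgds, which makes the same product as Hpgds and was not, and for the receptor gene Ptgfr. Each window runs from 250 bases before to 50 bases after the start of the RefSeq gene in the assembly GRCm38.p6, 5′ to 3′ on the gene's own strand. The windows are chr1:149961241-149961540 for Pla2g4a, chr6:65144681-65144980 for Hpgds, chr2:25469700-25469999 for Ptgds and chr3:151837479-151837778 for Ptgfr, all on the minus strand. Capitals mark matches on either strand to any of 6 motifs, which are the TATA box (TATAAA), the CCAAT box, the GC box (GGGCGG), the letters that AP-1 factors bind (TGANTCA), the E-box (CACGTG) and the hexamer of nuclear receptors (AGGTCA).
Pla2g4a: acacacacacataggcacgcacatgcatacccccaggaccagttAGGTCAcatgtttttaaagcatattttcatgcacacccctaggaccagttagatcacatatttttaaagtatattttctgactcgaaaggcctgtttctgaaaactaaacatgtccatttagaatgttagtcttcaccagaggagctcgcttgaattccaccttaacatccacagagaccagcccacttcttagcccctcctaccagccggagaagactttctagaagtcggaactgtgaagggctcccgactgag
Hpgds: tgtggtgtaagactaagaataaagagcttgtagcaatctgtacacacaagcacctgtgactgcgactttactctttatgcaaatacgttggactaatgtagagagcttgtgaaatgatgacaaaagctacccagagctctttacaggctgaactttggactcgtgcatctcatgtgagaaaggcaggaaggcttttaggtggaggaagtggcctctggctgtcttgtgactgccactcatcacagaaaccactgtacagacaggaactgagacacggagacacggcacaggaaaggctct
Ptgds: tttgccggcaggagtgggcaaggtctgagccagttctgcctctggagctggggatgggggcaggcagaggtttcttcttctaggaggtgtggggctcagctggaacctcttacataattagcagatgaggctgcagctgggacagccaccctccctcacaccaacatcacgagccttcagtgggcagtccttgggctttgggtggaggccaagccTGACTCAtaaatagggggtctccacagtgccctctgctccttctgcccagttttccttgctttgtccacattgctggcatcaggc
Ptgfr: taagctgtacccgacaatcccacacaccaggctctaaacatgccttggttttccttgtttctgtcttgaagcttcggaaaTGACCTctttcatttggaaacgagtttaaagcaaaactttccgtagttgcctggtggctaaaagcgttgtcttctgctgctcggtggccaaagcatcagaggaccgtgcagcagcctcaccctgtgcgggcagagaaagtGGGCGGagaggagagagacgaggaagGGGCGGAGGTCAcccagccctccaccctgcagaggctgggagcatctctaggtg
A window was found for 9 of the 10 genes, all but Ptgis, and the 4 shown share no common motif. The Pla2g4a window held 1 AGGTCA match, at position -206 from the start, and a second RefSeq window of the gene was not shown. The Hpgds window held none of the 6 motifs. The Ptgds window held 1 AP-1 match, at position -35, and the Ptgfr window held 2 GC boxes and 2 AGGTCA matches, 1 of which lies next to a GC box. Over 32851 promoter windows of the same length, AGGTCA was found in 16.3%, GGGCGG in 35.7%, TGANTCA in 7.81%, CCAAT in 37.4%, TATAAA in 13.6% and CACGTG in 7.15%. GC content was 45.3% for Pla2g4a, 46.7% for Hpgds, 57.7% for Ptgds and 54.3% for Ptgfr, against a median of 52.7%. These matches describe the letters of the windows and say nothing of binding.

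After 7 days of rebamipide, transcripts of 2 of the 10 genes were lower and of none higher. They were Pla2g4a, which frees arachidonic acid for all branches, and Hpgds, the hematopoietic PGD2 synthase. Of the 10 genes 9 passed the expression filter and 1, Ptgdr, did not. Of the 9 tested, 0 were called higher against a background of 14.1% of all genes tested, and 2 were called lower against 6.51%. Without adjustment, edgeR also gave 0 higher and 2 lower at p under 0.05, against 20.9% and 18.8%. At the study's thresholds, which ask for a log2 change above 1 in size and an unadjusted p under 0.05, edgeR again gave 0 higher and 2 lower, against 14.3% and 14.5%. The study set these thresholds for DESeq2, with which Ptgfr also met them (log2 fold change -2.40, unadjusted p 0.00954). DESeq2 called 0 higher, against 16.2%, and 4 of 10 lower, against 15.5%. The count called lower was 1 with limma-voom and 1 without the expression filter, and edgeR called 0 without vehicle replicate 2, vehicle replicate 3 or rebamipide replicate 2. Every rebamipide library lay below every vehicle library for 4 of the 9, Pla2g4a, Hpgds, Ptgfr and Slco2a1, and above for 0, against 24% and 24.5% of all genes tested. The median log2 fold change of the 9 was -0.27, with 8 values below 0 and 1 above, beside the median of -0.17 over all genes.

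**Figure D1:**
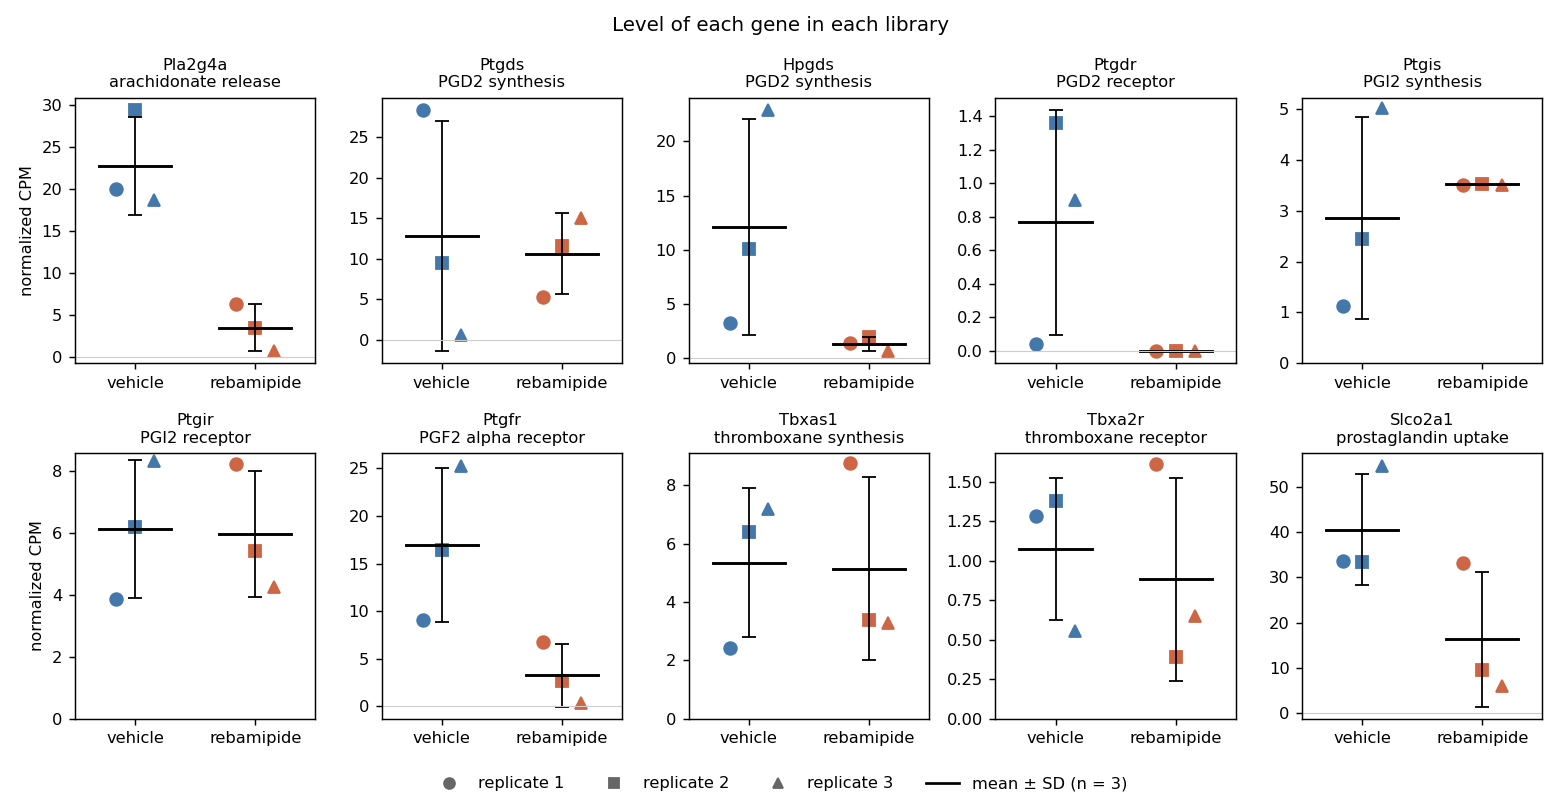
Normalized CPM of each of the 10 genes in every library, with a vertical axis of its own for each gene, vehicle in blue and rebamipide in orange. Symbols mark replicates, the thick line is the mean and the error bar the SD over 3 libraries. Pla2g4a, Hpgds, Ptgfr and Slco2a1 have all 3 rebamipide points below all vehicle points, Ptgdr is at 0 in rebamipide skin, and the other genes overlap.

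Pla2g4a encodes cytosolic phospholipase A2 alpha, the calcium-activated enzyme that cuts arachidonic acid from membrane phospholipids. The gene is ENSMUSG00000056220, at chr1:149705369-149837041 on the minus strand in the table's build, GRCm39. Its normalized CPM was 20, 29.4 and 18.7 in vehicle skin and 6.32, 3.51 and 0.763 in rebamipide skin. The groups did not overlap, and the rebamipide libraries spread more widely, 8.28-fold against 1.58-fold among the vehicle libraries. The mean fell from 22.7 ± 5.86 to 3.53 ± 2.78 (SD, n = 3), a log2 fold change of -2.68 (SE 0.73) with an edgeR adjusted p of 0.0484, or 6.41-fold lower. Basal keratinocyte markers, led by Krt5, Krt14 and Krt15, summed to 2452, 3977 and 3386 normalized CPM in vehicle and 1141, 707 and 131 in rebamipide skin. Their sum fell from the first to the third rebamipide library as Pla2g4a did, an order shared by 13 of the 18 marker lists reported here, while in vehicle skin it was lowest in the first library and Pla2g4a in the third. The part of these lists in the fall of Pla2g4a was not tested. Without the third rebamipide library, which nearly lacks suprabasal keratinocyte transcripts, the log2 fold change of Pla2g4a was -2.20 with an adjusted p of 0.0356, in a fit that called 2.49% of all genes lower. Without the first rebamipide library it was -3.40 with an adjusted p of 0.0319, in a fit that called 12.8% of all genes lower. The call was lost without the expression filter (adjusted p 0.0552), when any vehicle library was left out (adjusted p 0.0988, 0.154 and 0.0826) or the second rebamipide library (0.161), with the log2 fold change between -2.46 and -2.78 in the 4 fits with a library left out, while DESeq2 called Pla2g4a lower in all 6 such fits.

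PGD2 is made by a pair of unrelated enzymes. Ptgds encodes the lipocalin-type synthase, a secreted protein that also carries lipophilic molecules, and Hpgds the glutathione-dependent synthase of mast cells, macrophages and T helper cells. Hpgds fell while Ptgds was not called, with vehicle libraries that ranked the 2 genes in opposite order.

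Hpgds (ENSMUSG00000029919) lies at chr6:65094277-65121892 on the minus strand. Its normalized CPM was 3.24, 10.1 and 22.9 in vehicle skin and 1.38, 1.91 and 0.648 in rebamipide skin. The vehicle libraries spread 7.06-fold, yet none reached down to the rebamipide libraries. The mean was 12.1 ± 9.98 against 1.31 ± 0.633 (SD, n = 3), and the log2 fold change of -3.20 (SE 0.81) had an edgeR adjusted p of 0.0409, or 9.19-fold lower. Mast cell markers, led by Mcpt4, Kit and Cma1, summed to 154, 176 and 316 normalized CPM in vehicle and 166, 62.3 and 47.8 in rebamipide skin, and 0 of their 8 genes were called. Of these, Hdc, the histamine-forming enzyme gene, was at 2.38, 1.77 and 6.9 normalized CPM in vehicle and 8.39, 9.54 and 10.3 in rebamipide skin (edgeR adjusted p 0.125), the opposite direction to the sum in the second and the third libraries. Macrophage markers, led by Lyz2, Csf1r and Mrc1, summed to 548, 1139 and 1262 against 1139, 480 and 303, and 4 T cell markers to 8.65, 13.7 and 27.4 against 14.1, 6.93 and 3.47, with 0 genes called in either list. All 3 sums rank the vehicle libraries as Hpgds does, from the first up to the third, an order shared by 12 of 18 marker lists. In the first rebamipide library each of the 3 sums lay within the vehicle range, and Hpgds, at 1.38, lay below every vehicle library. The part of these cells in the fall of Hpgds was not tested. DESeq2 gave Hpgds an adjusted p of 0.000321 and limma-voom one of 0.112. The edgeR call held without the first vehicle library (log2 fold change -3.69, adjusted p 0.0348) and was lost without vehicle replicate 2 or 3 (0.118 and 0.079) or any rebamipide library (0.0748, 0.118 and 0.0934 for replicates 1 to 3), with log2 fold changes from -3.56 to -2.34.

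Ptgds (ENSMUSG00000015090) lies at chr2:25356721-25360058 on the minus strand. Its normalized CPM was 28.4, 9.48 and 0.556 in vehicle skin and 5.23, 11.6 and 15.1 in rebamipide skin. The rebamipide values lay inside the vehicle range, which spanned 51.1-fold, the widest spread of the 9 genes tested. The log2 fold change was -0.27 (SE 1.15) with an adjusted p of 0.878, and its sign turned with the tool, since limma-voom gave 0.80. Melanocyte markers, led by Dct, Tyrp1 and Pmel, summed to 1052, 287 and 56.2 normalized CPM in vehicle and 131, 18 and 9.23 in rebamipide skin, and 6 dermal papilla markers, led by Corin, Alx4 and Crabp1, to 55.8, 27.4 and 14.4 against 22.2, 3.82 and 1.45. In vehicle skin both sums, and that of the growing hair follicle, descend from the first to the third library as Ptgds does. In rebamipide skin they descend too, while Ptgds was highest in the third library.

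The ratio of Ptgds to Hpgds within a library does not depend on the scaling between libraries. In counts per kilobase of the table's gene length, vehicle libraries had 34.1, 3.64 and 0.0945 Ptgds for each Hpgds, and rebamipide libraries 14.8, 23.7 and 91. On this scale the lipocalin-type gene stood above the hematopoietic one in 5 of 6 libraries, and the third vehicle library was the exception. In raw counts the second vehicle library also had less Ptgds (467) than Hpgds (500). The mean log2 ratio was 1.18 ± 4.29 in vehicle and 4.99 ± 1.36 in rebamipide skin (SD, n = 3), and the difference of 3.80 was within the spread of the vehicle libraries, which overlapped the rebamipide libraries (two-sided exact permutation p = 0.3, 0.45 adjusted over 3 ratios). With 3 against 3 libraries this test cannot go below 0.1.

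Ptgdr (ENSMUSG00000071489), at chr14:45088692-45096832 on the minus strand, encodes DP1, the PGD2 receptor that raises cyclic AMP. It had 2, 67 and 42 counts in vehicle skin and 0 in each rebamipide library. The first vehicle library was itself within the limit that a count of 0 allows. The mean was 0.766 normalized CPM in vehicle skin, at least 6.96-fold higher than the 0.11 that 3 counts per library would give in rebamipide skin. Its counts were too low for the expression filter. Without the filter edgeR gave an adjusted p of 0.0854, and DESeq2 one of 0.00215. The other PGD2 receptor gene, Ptgdr2, had 2 to 12 counts per library and was not tested.

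**Figure D2:**
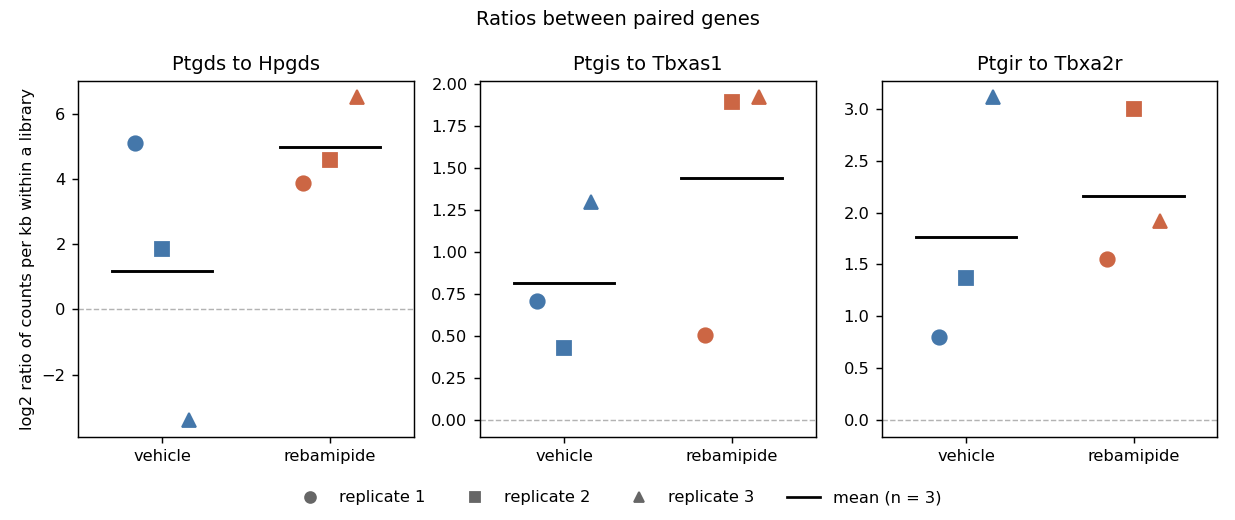
Log2 ratio of counts per kilobase between 2 genes in each library, for Ptgds to Hpgds, Ptgis to Tbxas1 and Ptgir to Tbxa2r. Symbols mark replicates and lines the mean of 3 libraries, and the groups overlap in all 3 panels, with the third vehicle library at -3.40 for Ptgds to Hpgds.

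Neither prostacyclin gene passed the test, and both overlapped between the groups. Ptgis encodes prostacyclin synthase, a cytochrome P450 of endothelium and smooth muscle. Ptgis (ENSMUSG00000017969, chr2:167033725-167082524, minus strand) had 1.12, 2.44 and 5.02 normalized CPM in vehicle and 3.52, 3.54 and 3.51 in rebamipide skin. The rebamipide libraries were nearly equal to each other and fell inside the vehicle range. The log2 fold change was 0.30 (SE 0.56) with an adjusted p of 0.709, and it turned to -0.29 with library totals alone.

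Ptgir (ENSMUSG00000043017, chr7:16640415-16644830, plus strand) encodes IP, the prostacyclin receptor of vessel walls, platelets and sensory neurons. Its normalized CPM was 3.88, 6.19 and 8.33 in vehicle and 8.23, 5.41 and 4.27 in rebamipide skin. The groups covered almost the same range, and the log2 fold change was -0.04 (SE 0.41) with an adjusted p of 0.95. Endothelial markers, led by Cdh5, Pecam1 and Kdr, summed to 258, 390 and 620 normalized CPM in vehicle and 1186, 1400 and 1645 in rebamipide skin, with 4 of 8 genes called higher. Smooth muscle and pericyte markers, led by Rgs5, Acta2 and Myh11, summed to 458, 545 and 690 against 798, 1048 and 1227, with 0 of 8 called. Both sums were higher in every rebamipide library, and neither Ptgis nor Ptgir was. Single markers were less uniform, since Rgs5, Acta2 and Myh11 each overlapped between the groups. The endothelial Vwf overlapped as well (log2 fold change -0.19, edgeR adjusted p 0.806). The part of vessel cells in the levels of Ptgis and Ptgir was not tested.

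Ptgfr encodes FP, the receptor of PGF2 alpha, which signals through calcium. Ptgfr (ENSMUSG00000028036, chr3:151502139-151543267, minus strand) had 9.09, 16.4 and 25.3 normalized CPM in vehicle skin and 6.81, 2.69 and 0.305 in rebamipide skin. All rebamipide libraries lay below all vehicle libraries, and within rebamipide skin the first library was 22.3-fold above the third. The log2 fold change of -2.37 (SE 1.00) did not pass the test, with an unadjusted p of 0.054 and an adjusted p of 0.133. DESeq2 called it lower (adjusted p 0.0337), and without the third rebamipide library edgeR gave -1.82 and 0.116. Ptgfr was not called in any of the 6 edgeR fits that left out 1 library (adjusted p 0.0646 to 0.307). Its log2 fold change in these fits ran from -3.49, without the first rebamipide library, to -1.82. Fibroblast markers, led by Col3a1, Col1a2 and Col1a1, summed to 12358, 14557 and 19007 normalized CPM in vehicle and 15888, 3740 and 1986 in rebamipide skin. Like several other lists, they ranked the libraries within each group as Ptgfr did, and the first rebamipide library was within the vehicle range for these markers and below it for Ptgfr. The part of fibroblasts in the level of Ptgfr was not tested.

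The thromboxane genes did not pass the test in either direction. Tbxas1 encodes thromboxane A synthase, known from platelets and macrophages. Tbxas1 (ENSMUSG00000029925, chr6:38852338-39061519, plus strand) had 2.42, 6.41 and 7.20 normalized CPM in vehicle and 8.75, 3.39 and 3.28 in rebamipide skin. The highest value was the first rebamipide library and the lowest the first vehicle library. The log2 fold change was -0.05 (SE 0.59) with an adjusted p of 0.95. The macrophage marker sum given above ranked the libraries within each group in the same order as Tbxas1. Other lists did so too, among them the T cell, platelet and fibroblast markers. The vehicle order was shared by 12 of 18 marker lists and the rebamipide order by 13. Of the 6 platelet markers 3 were tested and 0 called. The sum of the 6 was 19.9, 33.5 and 48.4 against 40.2, 15.2 and 12.1, and Gp1bb was at 0 in every library. Pf4 made up most of the sum, with 14.7, 30.4 and 41 against 34.9, 12.4 and 9.34. Ppbp had a log2 fold change of the opposite sign (0.64, edgeR adjusted p 0.697). The span of Tbxas1 overlaps Hipk2 on the opposite strand, and since the strand setting of the counting was not given in the sources used here, reads of the 2 genes may not be told apart there.

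Tbxa2r (ENSMUSG00000034881, chr10:81164565-81171006, plus strand) encodes TP, the thromboxane receptor of platelets and smooth muscle. It had the fewest counts of the 9 genes tested, with 64, 68 and 26 counts in vehicle and 49, 10 and 17 in rebamipide skin, or 1.28, 1.38 and 0.556 against 1.61, 0.39 and 0.648 normalized CPM. The groups overlapped, with a log2 fold change of -0.27 (SE 0.67) and an adjusted p of 0.782. The ratio of Ptgis to Tbxas1, the synthases of the opposed vascular signals, was 1.64, 1.35 and 2.47 per kilobase in vehicle and 1.43, 3.71 and 3.79 in rebamipide skin. It overlapped between the groups, with mean log2 values of 0.82 ± 0.45 and 1.44 ± 0.81 (SD, n = 3) and a difference of 0.63 (two-sided exact permutation p = 0.3, adjusted 0.45). The ratio of their receptors, Ptgir to Tbxa2r, was 1.74, 2.58 and 8.63 against 2.94, 8 and 3.79, a log2 difference of 0.40 (two-sided exact permutation p = 0.6, adjusted 0.6). Per kilobase of gene length, the prostacyclin genes exceeded their thromboxane counterparts in all 6 libraries for both ratios. For the synthases this rests on lengths of 2567 bases for Ptgis and 9094 for Tbxas1. Raw counts of Ptgis were 56, 120 and 235 in vehicle and 107, 91 and 92 in rebamipide skin. Those of Tbxas1 were 121, 316 and 337 against 266, 87 and 86, and its overlap with Hipk2 bears on this ratio too.

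Slco2a1 (ENSMUSG00000032548, chr9:102865911-102973201, plus strand) encodes the carrier that takes prostaglandins up into cells, where they are broken down. Its normalized CPM was 33.6, 33.4 and 54.8 in vehicle skin and 33.3, 9.58 and 5.87 in rebamipide skin. The groups were separated by the gap between 33.4 and 33.3 only, and the first rebamipide library was at the level of the first 2 vehicle libraries. The log2 fold change was -1.32 (SE 0.67) with an adjusted p of 0.188. Without the first rebamipide library it was -2.39 with an adjusted p of 0.0161, and in that fit 12.8% of all genes were called lower. In the other 5 fits that left out 1 library, edgeR did not call Slco2a1.

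**Figure D3:**
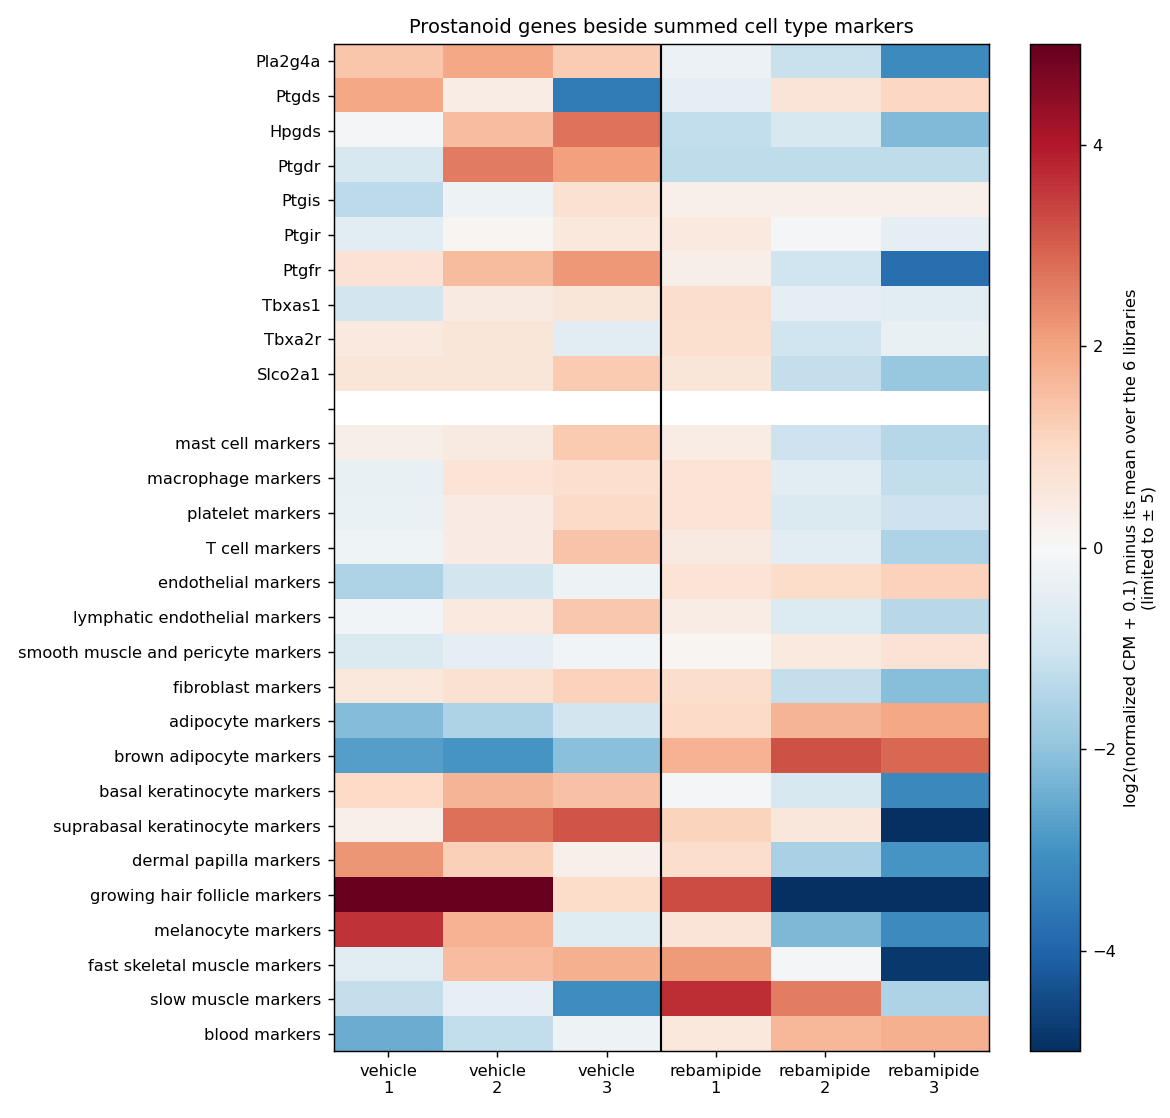
Heat map of the 10 genes and of the summed marker lists, with libraries as columns and genes or lists as rows. Colour gives log2 (normalized CPM + 0.1) minus the row's mean over the 6 libraries, limited to 5 in either direction. Endothelial, adipocyte, brown adipocyte, smooth muscle and blood markers are higher in all rebamipide libraries, basal keratinocyte markers are lower, and Ptgds and Hpgds run in opposite order across the vehicle libraries.

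Scaled by the table's gene length, Ptgds had the highest mean of the 10 genes in both groups, which in vehicle skin rested on 1 library. The lengths run from 1649 bases for Ptgds to 13545 for Slco2a1, and the order given here depends on them. In vehicle skin Ptgds had 17.2, 5.75 and 0.337 normalized CPM per kilobase. Without the first vehicle library its mean was 3.04, below Pla2g4a at 3.76, Slco2a1 at 3.26 and Ptgfr at 3.08. In vehicle skin the mean normalized CPM per kilobase was 7.77 ± 8.62 for Ptgds, 3.55 ± 0.916 for Pla2g4a, 3 ± 0.908 for Slco2a1, 2.5 ± 1.19 for Ptgfr, 1.88 ± 1.55 for Hpgds, 1.84 ± 0.668 for Ptgir, 1.11 ± 0.773 for Ptgis, 0.588 ± 0.282 for Tbxas1, 0.559 ± 0.235 for Tbxa2r and 0.24 ± 0.21 for Ptgdr (SD, n = 3). The libraries of every pair of neighbours in this order overlapped. In rebamipide skin the order was Ptgds (6.47 ± 3.05), Ptgir (1.79 ± 0.611), Ptgis (1.37 ± 0.00701), Slco2a1 (1.2 ± 1.1), Tbxas1 (0.565 ± 0.344), Pla2g4a (0.552 ± 0.435), Ptgfr (0.482 ± 0.486), Tbxa2r (0.46 ± 0.336), Hpgds (0.204 ± 0.0985) and Ptgdr at 0. There Ptgds lay above Ptgir in all 3 libraries, Hpgds lay above Ptgdr, and the other neighbours overlapped. The prostacyclin receptor and synthase thus stood in ranks 2 and 3 in rebamipide skin, after ranks 6 and 7 in vehicle skin, with Pla2g4a, Ptgfr and Hpgds placed lower.

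The other genes of the pathway were taken as a list of 31, of which 29 were tested and 2, Pla2g4d and Ptgdr2, were too low. Of the 29, 5 were called higher, close to the 14.1% of all genes tested, and 0 lower, against 6.51%, and the median log2 fold change was -0.43. At an unadjusted p under 0.05, edgeR gave 8 higher and 5 lower, against 20.9% and 18.8% of all genes, and DESeq2 called 5 of 31 lower after adjustment, against 15.5%. By role, 2 of 9 tested genes of arachidonate release were called higher, 0 of 2 cyclooxygenases, 1 of 7 PGE2 branch genes, 1 of 7 further D, F and J branch genes and 1 of 4 genes of breakdown and export. With edgeR the 5 calls fell to 3 without rebamipide replicate 3 and to 0 without vehicle replicate 2 or rebamipide replicate 2, where edgeR called 0 and 1 of all genes tested, while DESeq2 called 5 to 8 of the list higher in its 6 such fits.

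Plaat3, a phospholipase of adipocytes, had 54.5, 101 and 157 normalized CPM in vehicle and 361, 465 and 532 in rebamipide skin, a log2 fold change of 2.12 (SE 0.43, adjusted p 0.0228). Pla2g6, the calcium-independent phospholipase, had 10.8, 12.5 and 16.8 against 25.4, 27.9 and 34.5 (1.13, SE 0.26, adjusted p 0.0306). Both rose while Pla2g4a of the same step fell. Of the 9 tested genes of arachidonate release in the list, 5 had a negative log2 fold change, and the median was -1.44. For 4 of the 9 every rebamipide library lay below every vehicle library, against 24% of all genes tested, and 0 were called lower. Ptges2, a membrane protein named as a PGE synthase, had 16.7, 15.3 and 18.2 against 73.2, 94.8 and 101 (2.42, SE 0.20, adjusted p 0.00939). Cbr1, a carbonyl reductase that can turn PGE2 into PGF2 alpha, had 20, 23 and 24.6 against 50, 77.2 and 87.2 (1.66, SE 0.26, adjusted p 0.0125). Ptgr2, which reduces 15-keto prostaglandins after their oxidation, had 20.1, 24.4 and 28.1 against 78.8, 175 and 175 (2.57, SE 0.36, adjusted p 0.0107). In the 5 genes called higher, every rebamipide library lay above every vehicle library. With library totals alone, which lowers the median of all genes as given above, their log2 fold changes ran from 0.51 for Pla2g6 and 1.02 for Cbr1 to 1.91 for Ptgr2. Pla2g6 was then no longer called (adjusted p 0.118), nor with limma on log2(FPKM + 1) (0.41, adjusted p 0.118). The summed level of 8 adipocyte markers, led by Fabp4, Pnpla2 and Adipoq, was 1229, 1896 and 2938 normalized CPM in vehicle and 10652, 17936 and 21024 in rebamipide skin, with 7 of 8 called higher, and its part in these rises was not tested.

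Of the other 24 tested genes of the list, the 3 with the highest mean level per kilobase over all 6 libraries were Pla2g2f, Ptges3 and Prxl2b. In vehicle skin alone Cbr2, a carbonyl reductase named after its values were seen, stood above Prxl2b (39.1 against 32.8 normalized CPM per kilobase). Pla2g2f, a secreted phospholipase of the upper epidermis, had 206, 341 and 432 normalized CPM in vehicle and 115, 72.6 and 0 in rebamipide skin. It did not overlap, and the log2 fold change of -2.38 (SE 1.78) had an adjusted p of 0.344, with the third rebamipide library, at 0, again the one that nearly lacked suprabasal keratinocyte markers. Ptges3, the cytosolic PGE synthase and co-chaperone p23, had 157, 109 and 114 against 102, 126 and 119 (-0.14, adjusted p 0.665), and its difference was within the spread of the libraries. It was called lower with library totals alone and with limma on log2(FPKM + 1), fits that called 25.2% and 31.4% of all genes lower. Prxl2b, a PGF synthase of the thioredoxin fold, had 16.7, 36.2 and 48.1 against 48.2, 25.9 and 18.8 (-0.12, adjusted p 0.872) and overlapped as well. The cyclooxygenase genes, named after their values were seen, both missed the threshold with edgeR. Ptgs1 had 18, 60.1 and 79.1 against 26.7, 16.8 and 6.98 (-1.64, adjusted p 0.128), and the inducible Ptgs2 had 3.06, 2.52 and 8.42 against 0.395, 1.48 and 0.229 (-2.73, adjusted p 0.0702), without overlap. Ptgs2 was called lower with DESeq2, with library totals alone, with limma on log2(FPKM + 1) and at the study's thresholds.

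**Figure D4:**
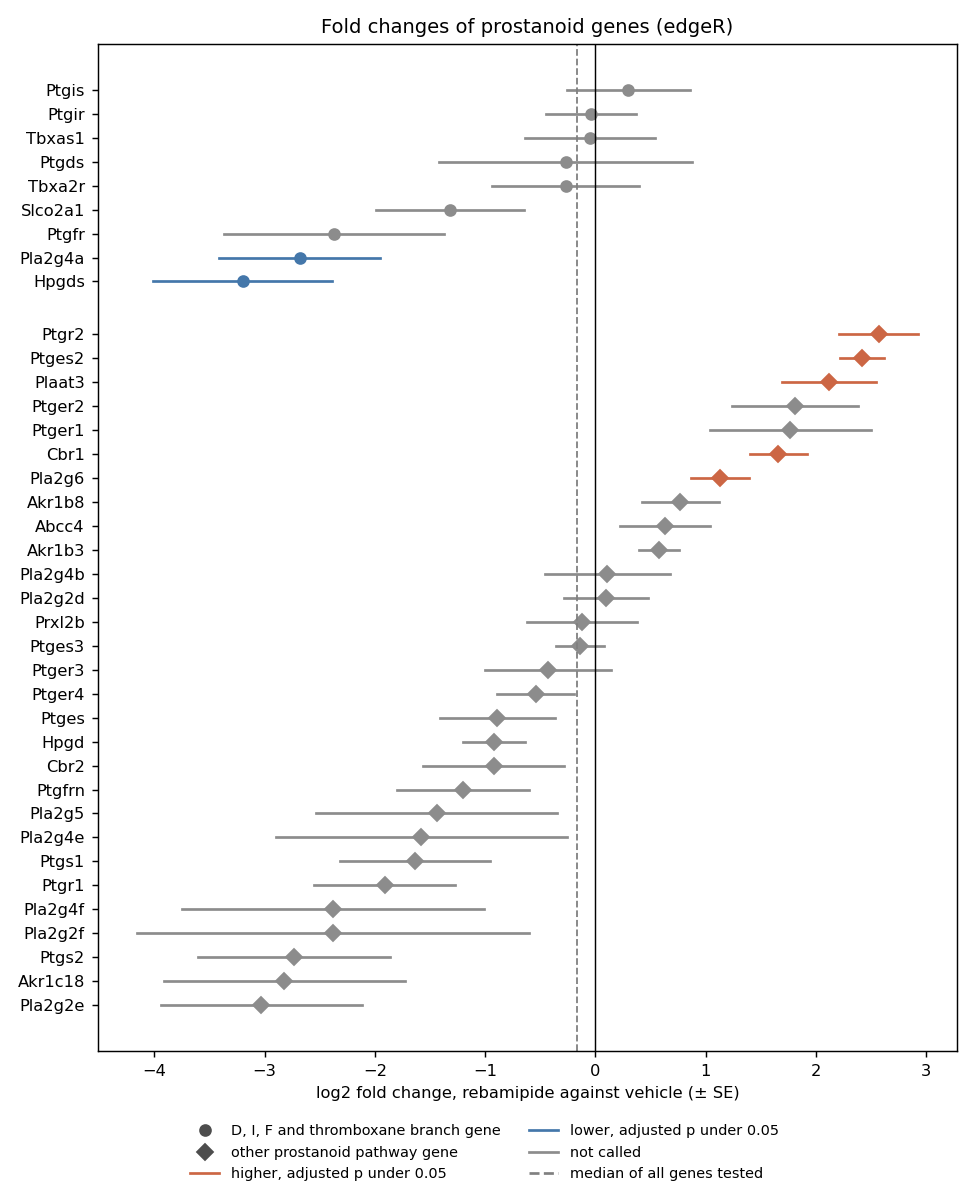
Log2 fold change of rebamipide against vehicle skin with its SE for the 9 tested genes of the D, I, F and thromboxane branches (circles) and the 29 other tested genes of the pathway (diamonds). Blue marks genes called lower (Hpgds and Pla2g4a), orange genes called higher (Ptgr2, Ptges2, Plaat3, Cbr1 and Pla2g6), grey genes not called, and the dashed line the median of -0.17 over all genes tested.

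Likeness of pattern was measured as the root mean square difference, over the 6 libraries, of log2 normalized CPM centred on each gene's mean, among genes with a mean of at least 50 counts (13377, or 13378 for Tbxa2r), and is given as a description. The nearest genes were Styk1 (0.18) and Hspa1b (0.19) for Pla2g4a, Mst1 (0.41) and Mmrn1 (0.42) for Hpgds, Rnf182 (0.35) and Cxxc4 (0.71) for Ptgds, Cyp1a1 (0.05) and Pla1a (0.08) for Ptgis, and B4galt5 (0.09) and Rtl5 (0.10) for Ptgir. For Ptgfr they were Scin (0.19) and Tmem125 (0.21), for Tbxas1 Sp140 (0.12) and Rcsd1 (0.12), for Tbxa2r Tspyl3 (0.32) and Mest (0.36), and for Slco2a1 Aldh1l2 (0.08) and Cpxm2 (0.10). Ptgds had few close neighbours, with its second already at 0.71 log2 units. Among the 142 pathway and marker genes, the nearest were Pla2g2e to Pla2g4a (0.54), the lymphatic endothelial Mmrn1 to Hpgds (0.42), Ptger4 to Ptgds (1.52), the smooth muscle Myh11 to Ptgis (0.19), Akr1c18 to Ptgfr (0.32), Kit to Tbxa2r (0.56), the collagen gene Col3a1 to Slco2a1 (0.25), and Prxl2b to both Ptgir (0.20) and Tbxas1 (0.17). Lymphatic endothelial markers as a list, led by Ccl21a, Pdpn and Lyve1, summed to 76.9, 120 and 217 normalized CPM in vehicle and 110, 52.2 and 32.4 in rebamipide skin.

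Across the tools, scalings, filters and left-out libraries that were tried, Pla2g4a and Hpgds were below 0 in all 27 fits each, from -3.75 to -1.89 and from -3.79 to -1.34 on the log2 scale. Pla2g4a was called in 19 of these 27 fits and Hpgds in 15. Ptgfr and Slco2a1 were below 0 in all 26 and 27 fits and were called in 5 and 4. Ptgds, Ptgis, Ptgir, Tbxas1 and Tbxa2r were called in 0 fits. Ptgds kept the sign of its log2 fold change in 16 of 27 fits.

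**Figure D5:**
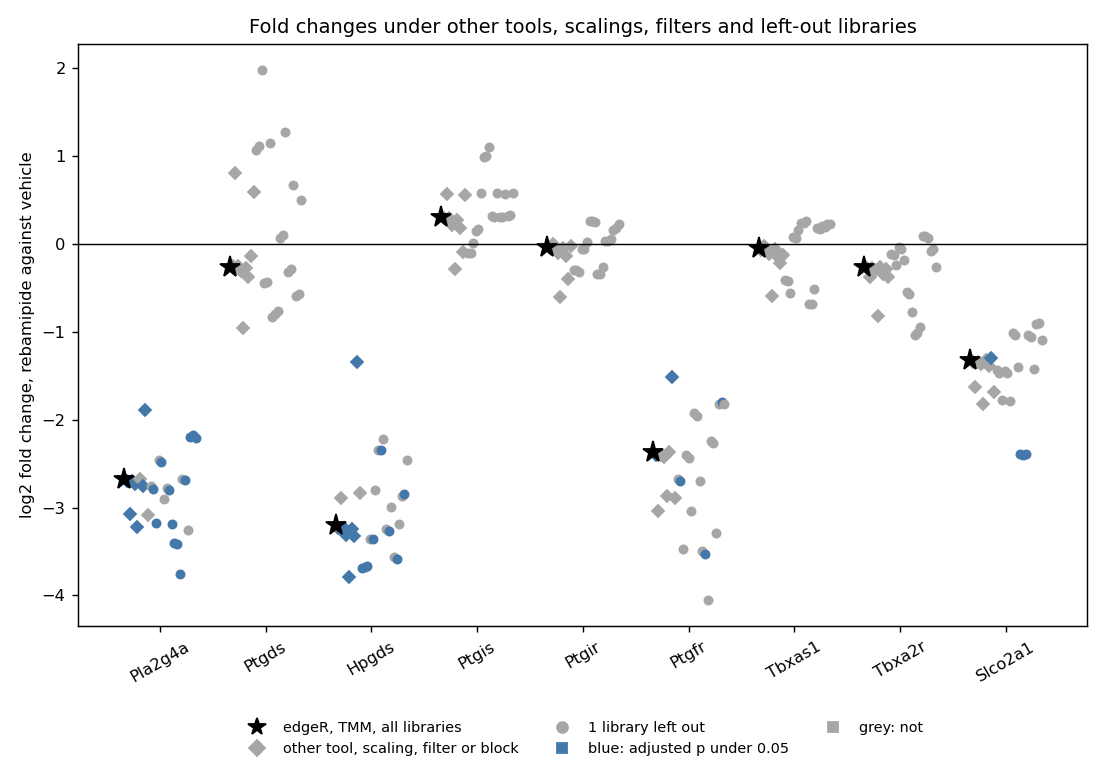
Log2 fold change of the 9 tested genes with edgeR and all libraries (stars), with other tools, scalings, filters or the replicate block (diamonds) and with 1 library left out (circles). Blue marks an adjusted p under 0.05 and grey any other fit. Pla2g4a, Hpgds, Ptgfr and Slco2a1 stay below 0 in every fit shown, and Ptgds runs from -0.96 to 1.97.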

How the data were processed

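Bulk RNA-seq of 6 skin samples, 3 per group, was analysed from 1 table of 21959 genes. The authors deposited raw read counts per gene, which are whole numbers without normalization, and FPKM, which equal the counts divided by gene length and by the library's total count (largest relative difference 5.1e-15). The submitters' processing notes name fastp 0.22.0, HISAT2 2.1.0, HTSeq 0.9.1 and the build GRCm39, and the study's methods name FPKM and DESeq2. All 12 columns of per-sample values were mapped to samples by name, and 0 rows lacked a gene ID. The mice were separate animals, and replicates differed by more than counting noise (chi-square over its degrees of freedom, 79.9 to 719).

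Counts were tested with edgeR 4.0.16 under R 4.3.3 (TMM, filterByExpr, quasi-likelihood test, Benjamini-Hochberg adjustment over 14875 genes). Levels per kilobase divide normalized CPM by the table's gene length. Ratios used a two-sided exact permutation test in scipy. The alternatives were DESeq2 1.42.0, limma-voom (limma 3.58.1), other scalings and filters, limma on log2(FPKM + 1) for genes with a mean FPKM of at least 0.1, a replicate block, and each library left out in turn with each of the 3 tools. The fits were checked on simulated counts. Promoter windows and motif shares are from RefSeq, GRCm38.p6, another build than that of the table, so no coordinates were joined between them.

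The genes, the pathway and marker lists and the tests were chosen with earlier results of these data known. Named are the 10 genes, the pathway genes called and the 3 others with the highest mean level per kilobase over the 6 libraries, up to 3 leading genes of each marker list, and the nearest genes by pattern. Ptgs1, Ptgs2, Cbr2, Ptgdr2, Pla2g4d, Elovl3, Hdc, Vwf, Hipk2 and Gp1bb fall outside this rule and were added once their values were known. The listed markers Trdc, Trac and Krt85 were not used. The other marker lists gave these summed normalized CPM in vehicle against rebamipide skin: fast skeletal muscle (Acta1, Myh4, Tnnt3) 4599, 19745 and 23013 against 29236, 6254 and 236, slow muscle (Myh7, Tnnt1, Myl3) 7.59, 13 and 1.9 against 223, 101 and 5.87, blood (Hbb-bs, Hba-a1, Hbb-bt) 42.4, 103 and 200 against 345, 761 and 808, and growing hair follicle (Krt71, Krt25, Krt27), in rebamipide skin, 785, 0.156 and 0. A further marker list is not reported here.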

Additional observations from a re-analysis of the deposited data

How the results depend on the processing

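The count of the 10 genes called lower was 2 with edgeR, which tested 9 of them, 4 with DESeq2 (Hpgds, Pla2g4a, Ptgdr and Ptgfr), 4 with limma on log2(FPKM + 1), 1 with limma-voom (Pla2g4a), 1 without the expression filter (Hpgds) and 0 with a replicate block. The share of all genes called lower was 6.51%, 15.5%, 31.4%, 6.94%, 4.5% and 5.75% in these 6 fits, and 25.2% with library totals alone, so 4 of 10 with limma on FPKM is near its background. With 1 library left out it was 0 to 2 with edgeR, 3 to 5 with DESeq2 and 0 to 3 with limma-voom (0% to 12.8%, 9% to 25.9% and 0.0468% to 9.16% of all genes), and the count called higher was 0 in every fit. The count of other pathway genes called higher was 5, and 0 to 8 with 1 library left out over the 3 tools. The count called lower was 0, against 5 with DESeq2, 5 of 29 with library totals alone, 1 with at least 10 counts in every library (12% of all genes), 9 of 28 with limma on log2(FPKM + 1), 1 with the block, 4 at the study's thresholds and 0 to 9 with 1 library left out (4 with edgeR without rebamipide replicate 1). Read against the shares above, the counts of 5 and 9 are near or below their backgrounds. The causes were not tested. The log2 ratio difference of Ptgir to Tbxa2r was -0.08 to 1.07 with 1 library left out, and turned sign without the first vehicle or the second rebamipide library (-0.02). That of Ptgds to Hpgds was 1.51 without the third and 5.76 without the first vehicle library, its lowest and highest values, and that of Ptgis to Tbxas1 was 0.39 to 1.09. Genes whose log2 fold change turned sign were Ptgds (limma-voom 0.80, block 0.59, and -0.83 to 1.97 with 1 library left out), Ptgis (library totals -0.29, FPKM -0.09, -0.11 to 1.10), Ptgir (-0.34 to 0.26), Tbxas1 (-0.68 to 0.26), Tbxa2r (-1.04 to 0.09), Prxl2b (-0.60 to 0.25) and Ptges3 (-0.26 to 0.04), none of them called in such a fit. With edgeR, leaving out the second vehicle library left 0 calls over all genes (4116 at an unadjusted p under 0.05) and leaving out the second rebamipide library left 1. Depth limits Ptgdr, with 0 to 67 counts per library. Equal replicate numbers did not pair the samples, since their deviations correlated at -0.016, -0.038 and 0.003 and no library correlated best with its own number. The block moved the adjusted p of Pla2g4a to 0.0622 and of Hpgds to 0.122.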
